A study of Mus musculus with 2 samples.

Results

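The miRNAs described here carry the number stems miR-297, miR-466, miR-467 and miR-669, the stems of a multicopy mouse miRNA cluster in an intron of Sfmbt2. They were all the names on the array that start with 1 of these 4 stems, 61 of 1080 names, of which 4 were miR-297, 22 miR-466, 12 miR-467 and 23 miR-669. By hairpin arm, 25 names were 5p, 26 were 3p and 10 gave no arm. The choice rested on names alone and used no measured value.

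Fresh bone marrow of C57BL/6 mice was induced to become myeloid-derived suppressor cells (MDSCs), an immature myeloid population that dampens T cell responses. The marrow was cultured for 4 days in medium with 5% serum and either GM-CSF at 40 ng/ml, which drives growth of granulocytes and macrophages, or the same GM-CSF with IL-6 at 40 ng/ml, a cytokine of inflammation that signals through STAT3. Both groups thus shared GM-CSF and the mouse strain and differed by IL-6; the number, age and sex of the mice were not given. Each group was measured on 1 single-colour Agilent array, so no difference between the groups has a replicate check and no p-value is given. A signal is the background-subtracted intensity of a name summed over its probes, in the scanner's units. Signals of different names do not rank the miRNAs by abundance, because each probe binds with its own strength.

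A miRNA is cut from a hairpin, and either its 5p or its 3p strand can be loaded into an Argonaute protein, where bases 2 to 8, the seed, pair with target mRNAs. Sfmbt2 is a Polycomb group gene that is imprinted and expressed from the paternal allele in mouse placenta. The miRNA cluster in its intron expanded in rodents by duplication of a short unit, so many of its products are near copies of each other. Their strands are rich in alternating U and G or alternating A and C.

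Mature sequences were matched in RefSeq (GRCm38.p6) for 6 of the 61 names, all of them from loci outside Sfmbt2. They are shown because they fall into a UG-rich and an AC-rich kind. Capitals mark the seed. The UG-rich names were miR-466j (chr10:60960802-60960824, plus strand), miR-466k (chr3:85467396-85467418, plus strand) and miR-669n (chr3:115979905-115979924, plus strand).
miR-466j: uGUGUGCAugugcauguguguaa
miR-466k: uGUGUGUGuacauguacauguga
miR-669n: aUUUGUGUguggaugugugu
The AC-rich names were miR-466i-3p (chr13:17747552-17747573, plus strand), miR-467f (chr11:69635419-69635439, minus strand) and miR-467g (chr5:34732872-34732892, minus strand).
miR-466i-3p: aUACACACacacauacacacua
miR-467f: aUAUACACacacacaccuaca
miR-467g: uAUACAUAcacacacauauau

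The 6 seeds were all different, and none was shared with another name of the array that had a matched sequence. The longest alternating UG run was 7 bases in miR-466j, 9 in miR-466k and 8 in miR-669n. The longest alternating AC run was 11 bases in miR-466i-3p, 12 in miR-467f and 9 in miR-467g. Stem number followed this split only in part. The miR-466 names fell into both kinds, whereas miR-467f and miR-467g were both AC-rich and miR-669n was UG-rich. The miR-466i-3p and miR-467f sequences shared a stretch of 13 bases across 2 stems, whereas miR-466i-3p and miR-466j, of 1 stem, shared 3.

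On the arrays as a whole, 308 names were detected with GM-CSF plus IL-6 and 301 with GM-CSF only, by the scanner software's flag, and 292 on both. Each name was read on 40 spots, 0 spots were saturated, and replicate spots had a median coefficient of variation of 8.18% and 7.42%. The labelled cell type was set against marker miRNAs. Of 4 names taken as myeloid markers 3 were detected on both arrays. They were miR-223-3p (6239 with IL-6 and 6807 with GM-CSF only), miR-142-3p (1398 and 1460) and miR-142-5p (263 and 268). Whether the miR-142 strands came from myeloid cells alone was not tested. Of 21 names that mark other cell types 7 were detected on both, with a summed signal of 174 and 173. Of all names on the array 27% were detected on both. The brightest of these 7 were the muscle marker miR-206-3p (67.8 and 55.5) and the lymphoid marker miR-150-5p (54.2 and 62.6). The others were miR-451 (erythroid), miR-126-3p (megakaryocyte and endothelial), miR-200c-3p and miR-141-3p (epithelial) and miR-122-5p (liver). The miR-206-3p sequence has a UG run of 7 bases, a repeat taken up below, and which RNA gave its signal was not tested. The myeloid name miR-223-5p and the stromal markers miR-143-3p, miR-145-5p, miR-199a-3p and miR-214-3p were detected on neither array. In a culture of mixed cells, more cells of a type and more RNA per cell cannot be told apart.

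With GM-CSF plus IL-6, 26 of the 61 names were detected, and with GM-CSF only 21. All 21 were also detected with IL-6, so 5 names were detected on the array with IL-6 alone, 0 on the GM-CSF only array alone and 35 on neither. Over all 1080 names 27% were detected on both arrays, 1.48% on the array with IL-6 alone and 0.833% on the other alone. The names of the 4 stems thus held 5 of the 16 names detected with IL-6 only and none of the 9 detected with GM-CSF only. The 57 viral names on the array held 2 of the 16 and none of the 9, and 10 of them were detected on both.

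**Figure D1:**
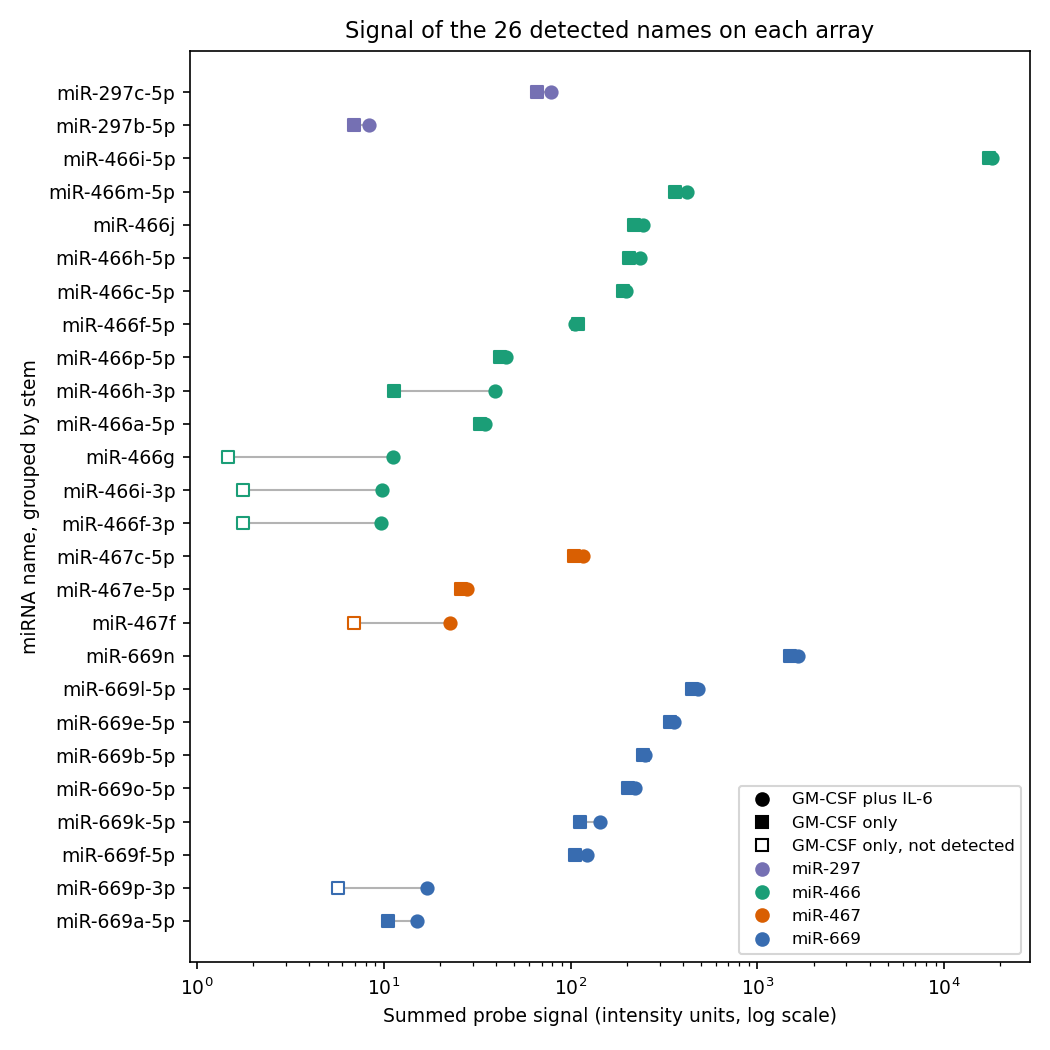
Summed probe signal (log axis, intensity units) of the 26 detected names, grouped by stem, with circles for GM-CSF plus IL-6 and squares for GM-CSF only (1 array each); open squares mark names not detected there. Most pairs nearly coincide, and the 6 wide gaps belong to miR-466h-3p and the 5 names detected with IL-6 only.

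The position of the names was looked up in RefSeq, which lists 81 loci of the 4 stems, 71 of them inside Sfmbt2. The arrays' files name no genome build, so only names and the enclosing gene were used. Of the 61 names 49 had loci inside Sfmbt2 alone, 7 had loci outside it alone, 4 had copies in both places and 1, miR-466a-5p, was not matched. The highest copy numbers were 12 loci for miR-669a-5p and 10 for each of miR-467a-5p and miR-467a-3p. An array probe cannot tell identical copies apart.

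Most of the signal carried by these stems came from names that lie outside Sfmbt2. The 7 outside names, miR-466i-5p, miR-466i-3p, miR-466j, miR-466k, miR-467f, miR-467g and miR-669n, had a summed detected signal of 19887 with IL-6 and 19021 with GM-CSF only. That was 87.1% and 87.9% of the signal of all detected names of the 4 stems. The 49 names inside Sfmbt2 summed to 2791 and 2479, or 12.2% and 11.5%.

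The miR-466i-5p name alone decided that split. Its signal was 17953 ± 124 (spot SE) with IL-6 and 17305 ± 168 with GM-CSF only, 78.6% and 80.0% of the signal of the 4 stems. All detected names of the 4 stems held 16.8% of the detected signal of the array with IL-6 and 15.4% with GM-CSF only. Without miR-466i-5p these shares were 3.58% and 3.10%. The next brightest, miR-669n, also lies outside Sfmbt2 and had a signal of 1658 and 1499. These are shares of fluorescence, not of molecules.

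The comparison of the cultures asks how the names moved when IL-6 was added to GM-CSF. Ratios are given as a relative log2 ratio, the array with IL-6 over the array without it, after dividing each array by its 75th percentile over the 292 names detected on both (160 and 182) and subtracting the median log2 ratio of those names, 0.12. A value above 0 therefore means higher with IL-6 than the middle of all names, not more molecules. The error given is the standard error over replicate spots, which covers spot error within 1 array and not the spread between cultures.

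Each of the 21 names detected on both arrays had a ratio above the median, against 50% of all 292 by construction. Their median relative log2 ratio was 0.21, with a range of 0.01 to 1.87. The 271 names outside the 4 stems had a median of -0.02, a range of -0.55 to 1.17, and 125 above the median. Of these, the 10 viral names had a median of 0.10 (-0.18 to 0.56), with 8 above the median of all names. The 261 mouse names had a median of -0.02, with 117 above it. The shift of the 21 names was small in size. Among the 21 only miR-466h-3p was at least 1.5-fold higher, as were 3.42% of all names, and none of the 21 was at least 1.5-fold lower, where the share of all names was 0%. At a threshold of 25% higher, 4 of the 21 names passed, against 12.3% of all names. With 1 culture a group, whether a shift of this size exceeds the spread between cultures was not tested.

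**Figure D2:**
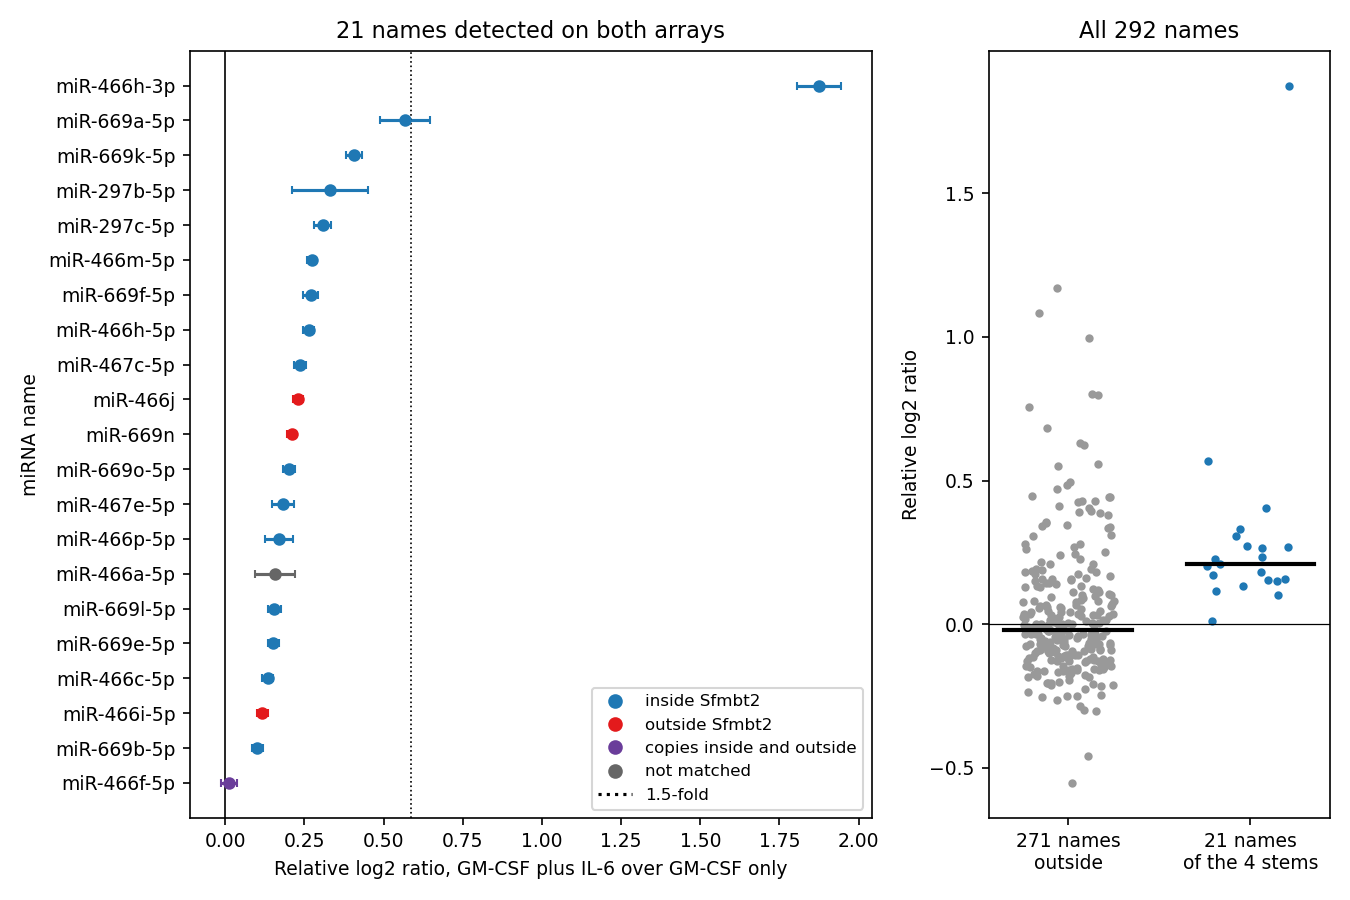
Left, relative log2 ratio (IL-6 over GM-CSF only) of the 21 names detected on both arrays, with bars for the spot SE, coloured by RefSeq position, and a dotted line at 1.5-fold; right, the same ratio for these names and the 271 others, with each group's median as a bar. The names of the 4 stems run from 0.01 to 1.87 around a median of 0.21, and the others lie around -0.02.

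The median by stem was 0.32 for the 2 miR-297 names detected on both arrays (0.31 to 0.33), 0.17 for the 9 miR-466 names (0.01 to 1.87), 0.21 for the 2 miR-467 names (0.18 to 0.23) and 0.21 for the 8 miR-669 names (0.10 to 0.57). The miR-297 value was the least stable, running from 0.12 to 0.74 over the settings tried. By position, the 16 names inside Sfmbt2 had a median of 0.25 (0.10 to 1.87) and the 3 outside it a median of 0.21 (0.12 to 0.23), and neither the difference between stems nor that between positions was tested.

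Among miR-297 names, miR-297c-5p had a signal of 78.2 with IL-6 and 66.1 with GM-CSF only, a relative log2 ratio of 0.31 ± 0.03. Its relative miR-297b-5p was near the detection limit at 8.38 and 6.97 (0.33 ± 0.12), with 6 and 1 of 40 spots well above background. Its ratio ran from 0.03 with the deposited gene total to 1.16 with the odd spots alone, and was 0.75 with the even spots alone, so its size is not settled.

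The 3 brightest miR-466 names were all less than 1.5-fold higher. The ratio of miR-466i-5p was 0.12 ± 0.02, and its 2 probes gave 0.09 and 0.14. For miR-466m-5p the signal was 419.6 with IL-6 and 363 with GM-CSF only (0.27 ± 0.01), and for miR-466j it was 244 and 217 (0.23 ± 0.02). These 3 names were well above background on all 40 spots of both arrays.

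The miR-466h hairpin gave 2 strands that moved by different amounts. Its 5p strand, which was reported to promote apoptosis in hamster ovary cells, had a signal of 236 and 205 (0.26 ± 0.02). Its 3p strand, miR-466h-3p, had a signal of 39.6 with IL-6 and 11.3 with GM-CSF only, a ratio of 1.87 ± 0.07 and the highest of all 292 names. Both its probes gave it, with signals of 16.96 and 4.43 on the dimmer probe and 22.6 and 6.86 on the brighter. It was well above background on 40 of 40 spots with IL-6 and on 3 of 40 with GM-CSF only, so its lower value lies near the detection limit. Its size and sign depended on the summary used, with a ratio of 0.53 after normexp background correction and of -2.86 from the deposited gene total, which on the GM-CSF only array was 304 against the probe sum of 11.3.

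The remaining miR-466 names detected on both arrays were all 5p. The lowest ratio of the 21 was that of miR-466f-5p, at 0.01 ± 0.03 on signals of 106 and 109.9. Its sign turned under other settings, to -0.01 with quantile normalization. The other 3, miR-466a-5p, miR-466c-5p and miR-466p-5p, had ratios between 0.13 and 0.17.

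Of the miR-467 names, miR-467c-5p had a signal of 117 with IL-6 and 104 with GM-CSF only (0.23 ± 0.02). For miR-467e-5p the values were 28.0 and 25.8 (0.18 ± 0.04).

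The highest miR-669 ratios were those of miR-669a-5p and miR-669k-5p. For miR-669a-5p, the strand with the most genomic copies, the signal was 14.98 and 10.6 (0.57 ± 0.08), with 20 and 14 of 40 spots well above background. That ratio fell to 0.09 with normexp background correction and to 0.04 with the deposited gene totals, which were 231 and 237. For miR-669k-5p it was 143 and 113 (0.41 ± 0.02), with all 40 spots well above background on both arrays. For miR-669f-5p it was 122 and 106 (0.27 ± 0.02). The brightest names of the stem had lower ratios. The name miR-669n had a ratio of 0.21 ± 0.01, and its 2 probes gave 0.19 and 0.22. For miR-669l-5p the signal was 479 and 449.6 (0.16 ± 0.02), read by 1 probe, and for miR-669e-5p it was 360.1 and 339 (0.15 ± 0.02). The other 2 were miR-669b-5p at 0.10 and miR-669o-5p at 0.20.

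Of the 49 probes of the 21 names 48 gave a ratio, and 47 of these lay above the median of all names. In the 20 names with several probes, all probes lay above it in 18. The others were miR-466a-5p, where 1 of 4 probes had signals below 0 and gave no ratio, and miR-297b-5p, where 1 of 4 probes lay below it with 0 spots well above background. Probes of 1 name share their target and the culture, so they are no replicates.

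The 5p and 3p arms differed in detection. Of 25 names of the 5p arm 18 were detected on both arrays, or 72%, 0 on 1 array only and 7 on neither. Of 26 names of the 3p arm 1 was detected on both, or 3.85%, 3 with IL-6 only and 22 on neither. Among mouse names outside the 4 stems the arms were detected about equally often, 111 of 411 for 5p (27.0%) and 109 of 421 for 3p (25.9%). The pattern held within stems. Of the 5p names, 2 of 2 miR-297, 7 of 10 miR-466, 2 of 5 miR-467 and 7 of 8 miR-669 were detected on both arrays, and of the 3p names 0 of 1, 1 of 9, 0 of 5 and 0 of 11.

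The ratios by arm are given side by side, and the difference between arms was not tested. The 18 names of the 5p arm had a median ratio of 0.19, from 0.01 to 0.57. The 3p name detected on both arrays, miR-466h-3p, was at 1.87 with the probe sum, 0.53 with normexp and -2.86 with the gene total. The other 3 detected 3p names passed the detection flag with IL-6 alone, so their higher value there follows from how they were found. The 2 names without an arm that were detected on both, miR-466j and miR-669n, lay with the 5p names (median 0.22).

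**Figure D3:**
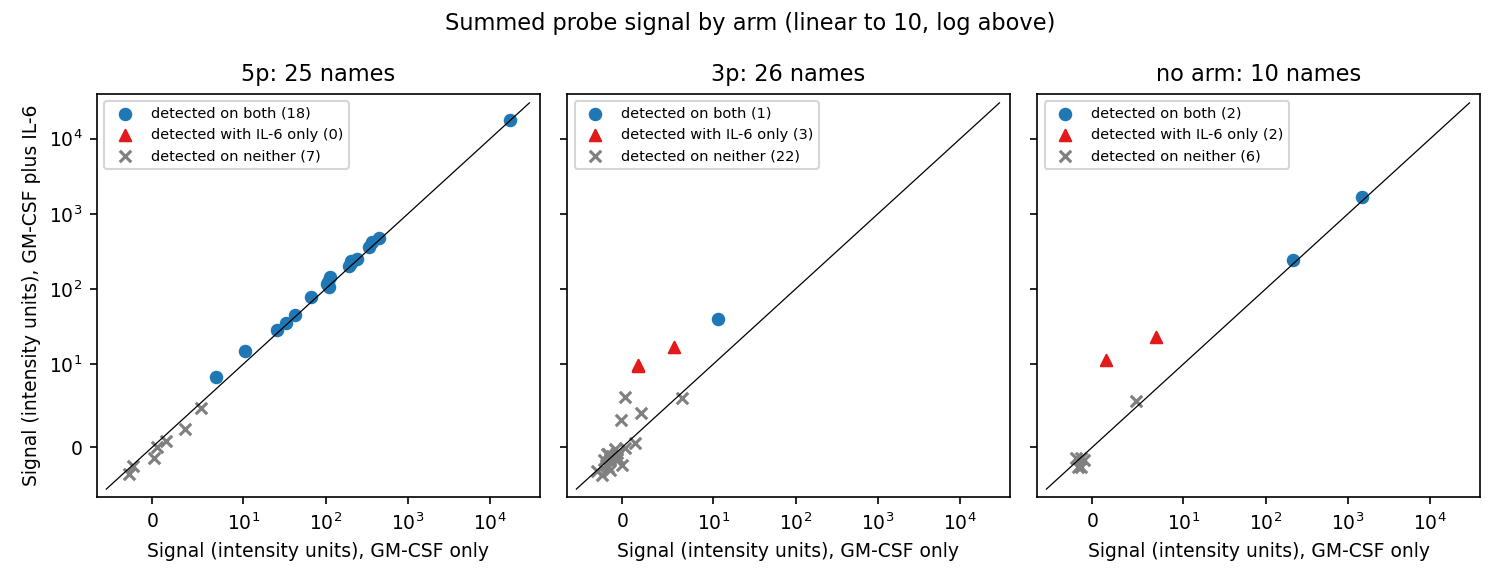
Summed probe signal with GM-CSF plus IL-6 (vertical) against GM-CSF only (horizontal) for the 61 names by arm, in intensity units on axes linear to 10 and logarithmic above, with the line of equal signal. The 5p names follow the line, whereas the 3p names are mostly near 0 and those detected lie above it; miR-466f-3p and miR-466i-3p fall on 1 spot of the plot.

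The 5 names detected with IL-6 only were miR-466f-3p, miR-466g, miR-466i-3p, miR-467f and miR-669p-3p. The signal of miR-467f was 22.7 ± 0.44 (spot SE) with IL-6 and 6.95 ± 0.53 with GM-CSF only, with 29 and 1 of 40 spots well above background. That of miR-669p-3p was 16.98 ± 0.57 and 5.67 ± 0.55, with 23 and 0 spots. These 2 were 3.71-fold and 3.40-fold higher after scaling, each against its own undetected value, which is a ratio and not a limit. These folds and those of the next paragraph are on the 75th percentile scale. Unlike the relative ratios above, they do not have the median log2 ratio of 0.12 subtracted.

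The other 3 were dimmer. The signal of miR-466g was 11.2 ± 0.42 with IL-6 and 1.47 ± 0.55 with GM-CSF only. That of miR-466i-3p was 9.82 ± 0.41 and 1.76 ± 0.44, and that of miR-466f-3p 9.72 ± 0.52 and 1.76 ± 0.34. The deposited gene totals with IL-6 were far higher than these probe sums, at 321, 243 and 206, so the level depends on which deposited value is used. Of their 40 spots 10, 7 and 10 were well above background on the array with IL-6, and 0 on the other. Set against the lowest detected signal of the GM-CSF only array (3.73), they were 3.40-fold, 2.99-fold and 2.96-fold higher. Detection did not follow signal alone, since another name was undetected there at 10.3, so these folds are not firm lower limits. Against that signal the scaled ratios were 1.23, 1.08 and 1.07, and 2.50 for miR-467f and 1.87 for miR-669p-3p. Before scaling, the 9.82 of miR-466i-3p and the 9.72 of miR-466f-3p lay below 10.3.

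In 2 further cases both strands of a name were detected, the 3p strand with IL-6 only. For miR-466i the 5p strand was at 0.12, while the 3p strand was detected with IL-6 only. For miR-466f, which has 4 loci, the 5p strand was at 0.01, and again the 3p strand was detected with IL-6 only. These cases were picked by the flag of their 3p strand. For miR-466m, miR-467c, miR-467e, miR-669b, miR-669e, miR-669f, miR-669k and miR-669l, the 5p strand was detected on both arrays and the 3p strand on neither. The unscaled signal of those 3p strands was higher with IL-6 for miR-466m, miR-669f and miR-669l, and lower for the others.

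The 35 names detected on neither array had signals of -3.31 to 6.03 with IL-6 and -2.77 to 6.56 with GM-CSF only. By the signal summed over both arrays, the brightest of each stem were miR-297a-5*_v17.0, miR-466b-3p, miR-467a-3p and miR-669g. Among the undetected 3p names 8 of 22 had the higher unscaled signal with IL-6, and among the undetected 5p names 0 of 7. The largest such differences, picked after their values were seen, were those of miR-669h-3p (6.03 and 0.31) and miR-669c-3p (3.31 and -0.08). Over all 35 names it was 10, and the share over all undetected names of the array was not counted. Of all 1080 names 463 had a signal below 0 with IL-6 and 409 with GM-CSF only. The difference between arms was not tested. No fold is given where both values are below detection.

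The matched sequences set these patterns beside base content. Of the 3 UG-rich names shown above, miR-466j and miR-669n were detected on both arrays, and miR-466k was on neither (-2.38 and -1.56). Of the 3 AC-rich names, miR-466i-3p and miR-467f were detected with IL-6 only and miR-467g on neither (-1.31 and -1.20). None of the AC-rich names was detected on the GM-CSF only array.

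Names outside the 4 stems were then searched for the same runs. Among names of the 4 stems with a matched sequence, the longest UG run in a detected name was the 8 bases of miR-669n. Most detected names of the 4 stems, miR-466i-5p among them, had no matched sequence, so their runs are not known here. Among the 788 outside names with a matched sequence 6 had a run of at least 8 bases. Their sequences are shown with the seed in capitals, because they share the repeat but not the stem. They were miR-574-5p (chr5:64970328-64970350, plus strand), miR-1187 (chr5:82798964-82798986, minus strand), miR-3082-5p (chr17:25831406-25831427, minus strand), miR-32-3p (chr4:56895232-56895252, minus strand), miR-672-5p (chrX:104116228-104116250, minus strand) and miR-3097-5p (chr5:35021050-35021072, plus strand).
miR-574-5p: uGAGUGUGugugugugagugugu
miR-1187: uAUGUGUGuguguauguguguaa
miR-3082-5p: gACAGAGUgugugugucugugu
miR-32-3p: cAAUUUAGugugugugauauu
miR-672-5p: uGAGGUUGguguacuguguguga
miR-3097-5p: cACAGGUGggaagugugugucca

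All 6 were detected on both arrays, and all 6 lay above the median, with a median ratio of 0.18 and a range of 0.06 to 0.34. The brightest, miR-574-5p, had a signal of 8070 with IL-6 and 7879 with GM-CSF only (0.10 ± 0.02). The highest ratio was that of miR-3097-5p, at 57.9 and 48.0 (0.34 ± 0.04). Between them lay miR-1187 (5089 and 5086, ratio 0.06), miR-3082-5p (5085 and 4916, 0.11), miR-32-3p (753 and 662, 0.25) and miR-672-5p (299.9 and 254, 0.31). The other 782 outside names with a sequence had 200 detected on both arrays, with a median of -0.03 and 83 above the median of all names.

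Shorter runs were also counted, in lengths chosen after the values were seen. With a UG run of at least 7 bases 8 outside names were found, 8 of 8 detected on both arrays and 8 above the median (median 0.28). Among them was miR-206-3p, listed above as a muscle marker, with a ratio of 0.35. With at least 6 bases there were 14, of which 10 were detected on both arrays, 10 of 10 above the median, and 2 more were detected with IL-6 only. With at least 5 bases there were 36, with 15 detected on both arrays and 13 of these above the median. No outside name had an AC run of at least 8 bases, and of the 2 with at least 7 bases 1, miR-574-3p, was detected with IL-6 only and the other on neither array. With an AC run of at least 6 bases there were 11 outside names, of which 3 were detected on both arrays, 1 of them above the median (median -0.10), and 1 with IL-6 only. With at least 5 bases there were 27, of which 5 were detected on both arrays, 2 of them above the median (median -0.10), and 2 with IL-6 only.

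**Figure D4:**
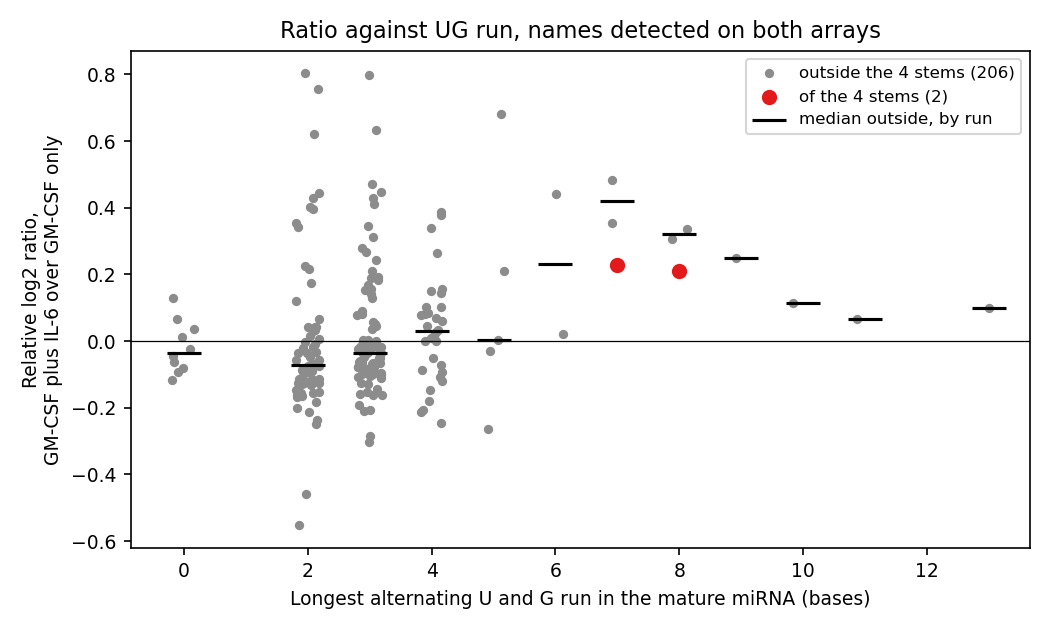
Relative log2 ratio (IL-6 over GM-CSF only) against the longest alternating UG run, for the names with a matched sequence detected on both arrays: 206 outside the 4 stems in grey, with the median at each run length as a bar, and miR-466j and miR-669n in red. The red points, at 0.23 (run of 7 bases) and 0.21 (run of 8 bases), lie below the outside names of the same run length. Every name with a run of at least 6 bases is above 0.

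Ratios above the median were thus found in names with UG runs both within and outside the 4 stems, and the difference between these groups was not tested. Whether RNAs of like repeat bind each other's probes was not tested either.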

How the data were processed

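The authors' scanner output came from Agilent Feature Extraction 10.7.1.1, per the file headers, and holds background-subtracted spot intensities and total probe intensities with no scaling between arrays. Per the labels' protocols, 0.2 ug of RNA from a mirVana kit was labelled with Cy3; the kit they name is a linear amplification kit for cRNA. Both arrays lay on 1 slide in 1 scan. A value table that the authors deposited is in log2 units with an unknown constant (column medians -9.60 and -9.60) and was used as an alternative.

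The level was the sum of total probe signals over the distinct probes of a name; detection was the software's flag. With 1 array a group no test was run, and fixed folds (1.5-fold, and 25% higher) took its place. Positions and sequences came from RefSeq tables (GRCm38.p6), with 794 array names matched to a mature sequence; the files name no build. Named at length were, in each stem, the 3 brightest and the 3 with the largest ratio among names detected on both arrays, and all names detected on 1 array only. Outside names needed a shared seed or a UG run of at least 8 bases. The names and lists were chosen with earlier results of these data known. Python 3.11.15 (numpy 2.4.6, pandas 2.3.3, matplotlib 3.10.9) and R 4.3.3 (limma 3.58.1) did the computing. The functions that rebuild a level from spots and form the ratio were first tested on simulated spots. There 9 of 20 true 1.5-fold changes and 20 of 20 true 3-fold changes passed the 1.5-fold rule. A true 1.5-fold change sits at that threshold, so spot noise decides whether it passes. The simulation drew spot noise from the GM-CSF only array, held no spread between cultures and centred ratios on names known to be unchanged. It therefore gives no sensitivity for the real comparison. The sums of probe totals, the detection flag and the matching of positions and sequences were not tested in this way. Alternatives covered scaling, probe summary, background correction, detection, spots and folds. Restricting to brighter names, or to names with at least 20 of 40 spots well above background, raised the ratio of each remaining name by a constant. Dropping the detection filter lowered the ratio of each of the 21 names by a constant.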

Additional observations from a re-analysis of the deposited data

How the results depend on the processing

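Scaling by the median, by the 75th percentile over all names or not at all, and leaving out spots with outlier flags, could not change a relative ratio here and are not counted. Of the 177 other values recomputed for medians, counts and shares, 148 kept their direction and stayed within a tolerance of 1 spot SD for a median, 1.5 times for a count and 1 coefficient of variation for a share. That tolerance is wide for dim names: the miR-297 median ran from 0.12 with no filter to 0.74 with odd spots, and the median of all 21 names was 0.12 with normexp. Of the 244 other values for single names detected on both arrays 240 were positive. The exceptions were miR-466f-5p (quantile normalization -0.012, brightest probe -0.0025, no detection filter -0.053) and miR-466h-3p with the gene total (-2.86). With brighter names or stricter detection, all values rose by a constant, so none could turn negative. As the only 3p name, miR-466h-3p set the 3p median, which was -2.86 with the gene total, 0.53 with normexp, 2.60 with the authors' table and 0 with no detection filter. The count at least 1.5-fold higher, 1 of 21, became 0 with the gene total, with normexp, among the 16 brighter names, among the 18 names with at least 20 of 40 spots well above background and among the 3 names outside Sfmbt2. It became 2 with odd spots, with even spots, with the median of the names outside the 4 stems as reference and on the 75th percentile scale without subtracting the median, 4 at the threshold of 25% higher, and 9 of all 61 names with no filter. The count at least 1.5-fold lower was 1 with the gene total and 2 with no filter, where most names sat at the floor of 1 and the medians were 0 for all names, 0.027 for miR-466, 0 for miR-467 and 0.073 for names without an arm. Without subtracting the median, miR-466 was at 0.29 and names without an arm at 0.34. All 3 names outside Sfmbt2 stayed above the median (3). The share of detected signal was 15.4% with the gene total for the array with IL-6. It was 3.58% and 3.10% without miR-466i-5p, and 23.8% and 21.9% without the brightest name, miR-1937b_v16.0, in the denominator. The cause of these changes was not tested. With stricter detection (at least 20 of 40 spots) 22 and 18 names were detected, and 4 with IL-6 only, miR-466h-3p, miR-467f, miR-669a-5p and miR-669p-3p. Of the 292 names detected on both arrays 220 met this rule on both, 18 of them of the 4 stems. The share of all names that met it with IL-6 only was not computed. The positions outside Sfmbt2, the scale without subtraction, the shorter runs and the highest undetected signal were chosen after seeing the data. Names with a mature sequence that no other name shares were not counted apart, since 6 sequences were matched. No paired analysis was possible because each group has 1 array and the groups share fewer than 2 replicate numbers. With 1 array a group none could be left out.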
